A study of Mus musculus with 32 samples.

Results

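The 10 genes described here belong to the growth hormone and STAT5 axis of the liver: the receptor gene *Ghr*, the signal transducer *Stat5b*, the secreted products *Igf1* and *Igfals*, the feedback inhibitor *Socs2*, the transcriptional repressors *Bcl6* and *Cux2*, and the sex-biased enzyme genes *Hsd3b5*, *Cyp2d9* and *Elovl3*. They are 10 of the 54532 genes for which reads were counted. *Hsd3b5* was selected because its level fell strongly in *Cyp2c70* KO mice, so its values are described and not tested. The other 9 genes were named for their place in the pathway, with earlier results of these data known. Each of the 10 had reads in every mouse. Livers were taken at 12 weeks of age from 32 mice, which formed 8 groups of 4 by sex, genotype and diet. The WT and KO mice shared a C57BL/6 background. The KO mice descended from a single CRISPR-edited founder that lacked a segment spanning exon 2 of *Cyp2c70*, the enzyme that makes muricholic acids. They received chow, or chow containing 0.006% SC-435 (about 11 mg/kg/day), an inhibitor of the ileal bile acid transporter (IBAT). The study describes 8 weeks of feeding from weaning at 4 weeks of age, whereas the sample labels start the diet 3 weeks after weaning. All mice had free access to food and were not fasted before tissues were taken. The hour of tissue collection is not given in the sources used here.

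Growth hormone is released from the pituitary in well separated pulses in male mice and more continuously in female mice. In hepatocytes, its receptor GHR activates the kinase JAK2, which phosphorylates STAT5b, and paired STAT5 molecules enter the nucleus and bind DNA. Direct targets include *Igf1*, which encodes the main circulating growth factor, *Igfals*, whose product keeps that factor in the blood, and *Socs2* and *Cish*, whose products dampen the receptor. The timing of the hormone also sets the sex-biased genes of the liver, in part through the repressors BCL6, which is higher in male liver, and CUX2, which is found in female liver.

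STAT5 binds an inverted repeat that is usually written TTCNNNGAA and reads alike on both strands. The RefSeq table for GRCm38.p6 held promoter windows of 300 bases, from 250 before to 50 after an annotated start site, for 8 of the 10 genes, and none for *Socs2* and *Elovl3*. Of these 14 windows, 4 contained the repeat, all of them from *Igfals* and *Bcl6*. It was in 8.30% of the 32851 windows searched over the genome, a search that left out a single chromosome. The 4 windows are shown because they hold every match found in the 14 windows, with the matching bases in capitals and the sequence written along the coding strand. *Igfals* matches began 236 and 58 bases before their start sites, and the *Bcl6* match of the first window began 118 bases before its start site. Another *Igfals* window, at chr17:24878497-24878796, includes the start of the counted gene (24878770) and held 0 matches. The second *Bcl6* window held 3 matches, beginning 168, 122 and 88 bases before the start site, and 0.457% of the windows searched held 2 or more. A match describes these letters and does not show that STAT5 was bound.
Igfals window 1, chr17:24877594-24877893, plus strand: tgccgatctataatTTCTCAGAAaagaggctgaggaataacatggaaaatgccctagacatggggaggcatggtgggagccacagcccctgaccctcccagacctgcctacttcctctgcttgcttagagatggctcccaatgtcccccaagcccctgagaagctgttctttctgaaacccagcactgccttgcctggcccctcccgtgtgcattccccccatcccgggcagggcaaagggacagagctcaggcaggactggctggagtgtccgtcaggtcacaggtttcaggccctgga
Igfals window 2, chr17:24877981-24878280, plus strand: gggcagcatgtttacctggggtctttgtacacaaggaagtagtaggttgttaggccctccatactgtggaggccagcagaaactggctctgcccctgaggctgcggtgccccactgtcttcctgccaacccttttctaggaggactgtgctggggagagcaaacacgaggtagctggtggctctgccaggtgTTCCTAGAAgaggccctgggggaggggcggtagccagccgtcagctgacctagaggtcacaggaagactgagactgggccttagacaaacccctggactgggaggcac
Bcl6 window 1, chr16:23988803-23989102, minus strand: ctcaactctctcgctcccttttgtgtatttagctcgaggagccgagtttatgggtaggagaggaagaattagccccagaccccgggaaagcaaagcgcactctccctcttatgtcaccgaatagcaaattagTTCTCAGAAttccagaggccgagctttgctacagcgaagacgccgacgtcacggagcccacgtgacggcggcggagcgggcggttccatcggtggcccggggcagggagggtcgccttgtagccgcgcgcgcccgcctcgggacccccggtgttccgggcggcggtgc
Bcl6 window 2, chr16:23981234-23981533, minus strand: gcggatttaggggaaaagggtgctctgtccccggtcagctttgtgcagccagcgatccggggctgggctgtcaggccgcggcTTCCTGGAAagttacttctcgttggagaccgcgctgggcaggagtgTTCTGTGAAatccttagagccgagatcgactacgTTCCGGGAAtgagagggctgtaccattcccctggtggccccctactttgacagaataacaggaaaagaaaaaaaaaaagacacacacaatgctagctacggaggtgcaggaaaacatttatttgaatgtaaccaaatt

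Gene-assigned reads numbered 36476021 to 44771350 in the single libraries. *Cyp2c70* itself was at 271 to 838 CPM (a gene's read count relative to the TMM-adjusted total of its library) in the 16 WT mice and at 109 to 188 CPM in the 16 KO mice. Among the male WT mice on chow, replicate 1 stood apart: its TMM factor was 0.622, where the other 3 had 0.964 to 1.004. Its log2 CPM correlated with theirs at 0.918 on average. Each of the other 3 averaged 0.962 to 0.964 over the rest of the group, replicate 1 included. For many of the results that include this mouse, values without it are also given. All 9 matched hepatocyte markers of 10 listed were expressed in every group, with a summed level of 61625 to 197663 CPM per mouse. The summed level of 8 cholangiocyte markers was 134 to 299 CPM in female KO mice on chow against 37.3 to 71.6 CPM in female WT mice on chow. In the males it was 145 to 1189 CPM against 26.6 to 36.1 CPM. Stellate cell markers were at 279 to 698 against 158 to 230 CPM in females, and 212 to 910 against 130 to 161 CPM in males. Macrophage markers were at 463 to 697 against 310 to 361 CPM in females and overlapped in males, at 260 to 966 against 235 to 435 CPM. Neutrophil markers, at most 4.16 CPM, were higher without overlap in KO mice of both sexes, and T and B cell markers overlapped. On SC-435, cholangiocyte markers were at 99.9 to 143 CPM in female KO mice and 31.9 to 39.1 CPM in female WT mice. In males on SC-435 they were at 50.9 to 61.1 against 29.8 to 49.0 CPM. Stellate cell markers on SC-435 were at 249 to 297 against 122 to 160 CPM in females and overlapped in males. Macrophage markers on SC-435 overlapped in both sexes. The part of such shifts in the results that follow was not tested. In whole liver, fewer cells of a type and less RNA per cell cannot be told apart.

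Levels differed widely among the 10 genes and, for 4 of them, between the sexes. Scaled to gene length, the highest mean levels in male WT mice on chow were those of *Cyp2d9* (969 CPM per kb), *Elovl3* (332 CPM per kb) and *Hsd3b5* (266 CPM per kb). *Igfals*, *Ghr* and *Igf1* followed at 124, 59.2 and 59.0 CPM per kb, and *Cux2* was lowest at 0.0544 CPM per kb. In female WT mice on chow the order began with *Igfals* (100 CPM per kb), *Igf1* (71.9 CPM per kb) and *Ghr* (57.5 CPM per kb), and *Cyp2d9*, *Elovl3*, *Hsd3b5* and *Cux2* were at 21.5, 7.14, 6.69 and 2.61 CPM per kb. Without replicate 1, *Elovl3*, *Igfals* and *Cyp2d9* in the male WT mice were at 122, 80.8 and 654 CPM per kb.

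**Figure D1:**
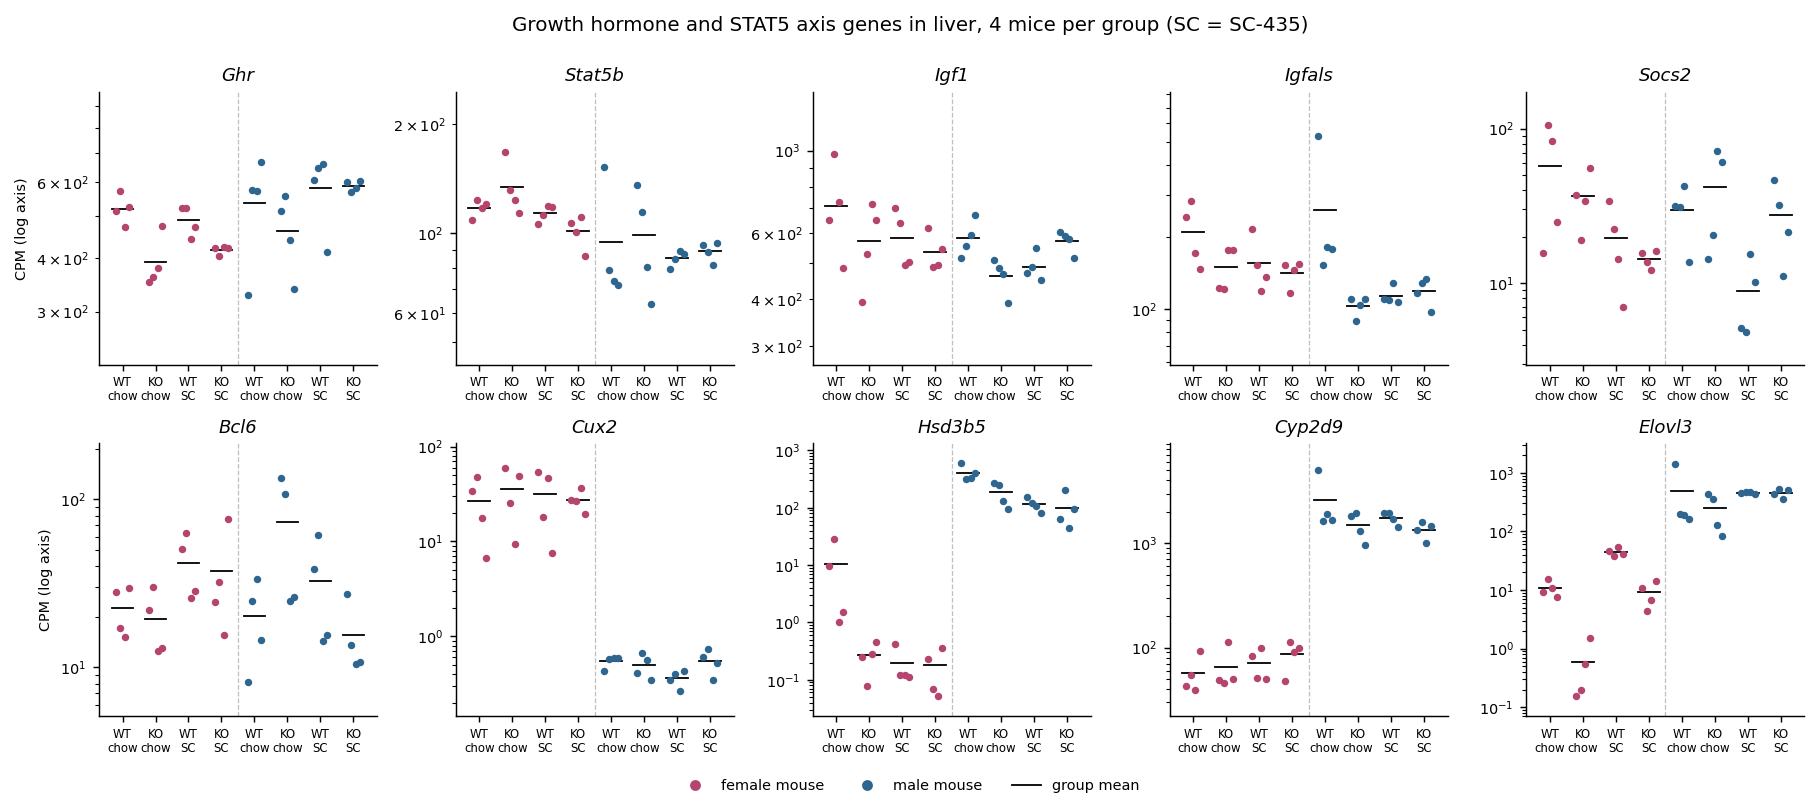
Level of each of the 10 genes in every mouse, in CPM on a log axis. Points are mice (4 per group, pink for females and blue for males), black lines are group means, and the groups are WT or KO mice on chow or on SC-435 (SC). *Elovl3* in females spans 0.155 CPM in a KO mouse on chow to 54.5 CPM in a WT mouse on SC-435, and *Cux2* is at most 0.729 CPM in any male.

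Genotype and SC-435 were compared within each sex with edgeR's quasi-likelihood test, and a gene was called at a Benjamini-Hochberg adjusted p under 0.05 over all genes tested. In chow-fed females, *Ghr* and *Elovl3* were lower in KO than in WT mice, 2 of 9 genes tested, where 14.9% of all genes tested were called. In female KO mice, SC-435 was accompanied by more *Elovl3* and less *Socs2*, 2 of 9 with 17.8% of all genes called. In female WT mice, *Elovl3* alone rose with SC-435, 1 of 9 with 4.28% called. On SC-435, *Elovl3* alone was lower in female KO than in WT mice, 1 of 9 with 10.9% called. Female KO mice on SC-435 had less *Ghr* and *Socs2* than female WT mice on chow, 2 of 9 with 16% called. These counts are close to the background in most comparisons, and the comparisons share groups of mice.

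In males, *Bcl6* was lower in KO mice given SC-435 than in those on chow, 1 of 9 genes with 17.2% of all genes called. None of the 9 was called by edgeR in male KO against WT mice on chow, where 1.08% of all genes were called, although 2 had an unadjusted p under 0.05 and DESeq2 called 2. SC-435 in male WT mice gave 0 of 9 calls by edgeR with 0.0394% of all genes called, 2 unadjusted p values under 0.05 and 1 call by DESeq2. Male KO and WT mice on SC-435 differed in 0 of 9 genes by edgeR with 0.0324% called, 3 unadjusted p values under 0.05 and 0 calls by DESeq2, and 0 were called by edgeR with any of the 8 mice left out. Male KO mice on SC-435 against male WT mice on chow gave 0 of 9 by edgeR with 0.208% called, 2 unadjusted p values under 0.05 and 0 calls by DESeq2. Without male WT chow replicate 1, the shares of all genes called by edgeR were 7.3%, 2.53% and 12.2% in the 3 male comparisons against WT mice on chow or of WT mice across diets, and 1, 2 and 2 of the 9 genes were called, *Igfals* in each and *Elovl3* in the latter pair.

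**Figure D2:**
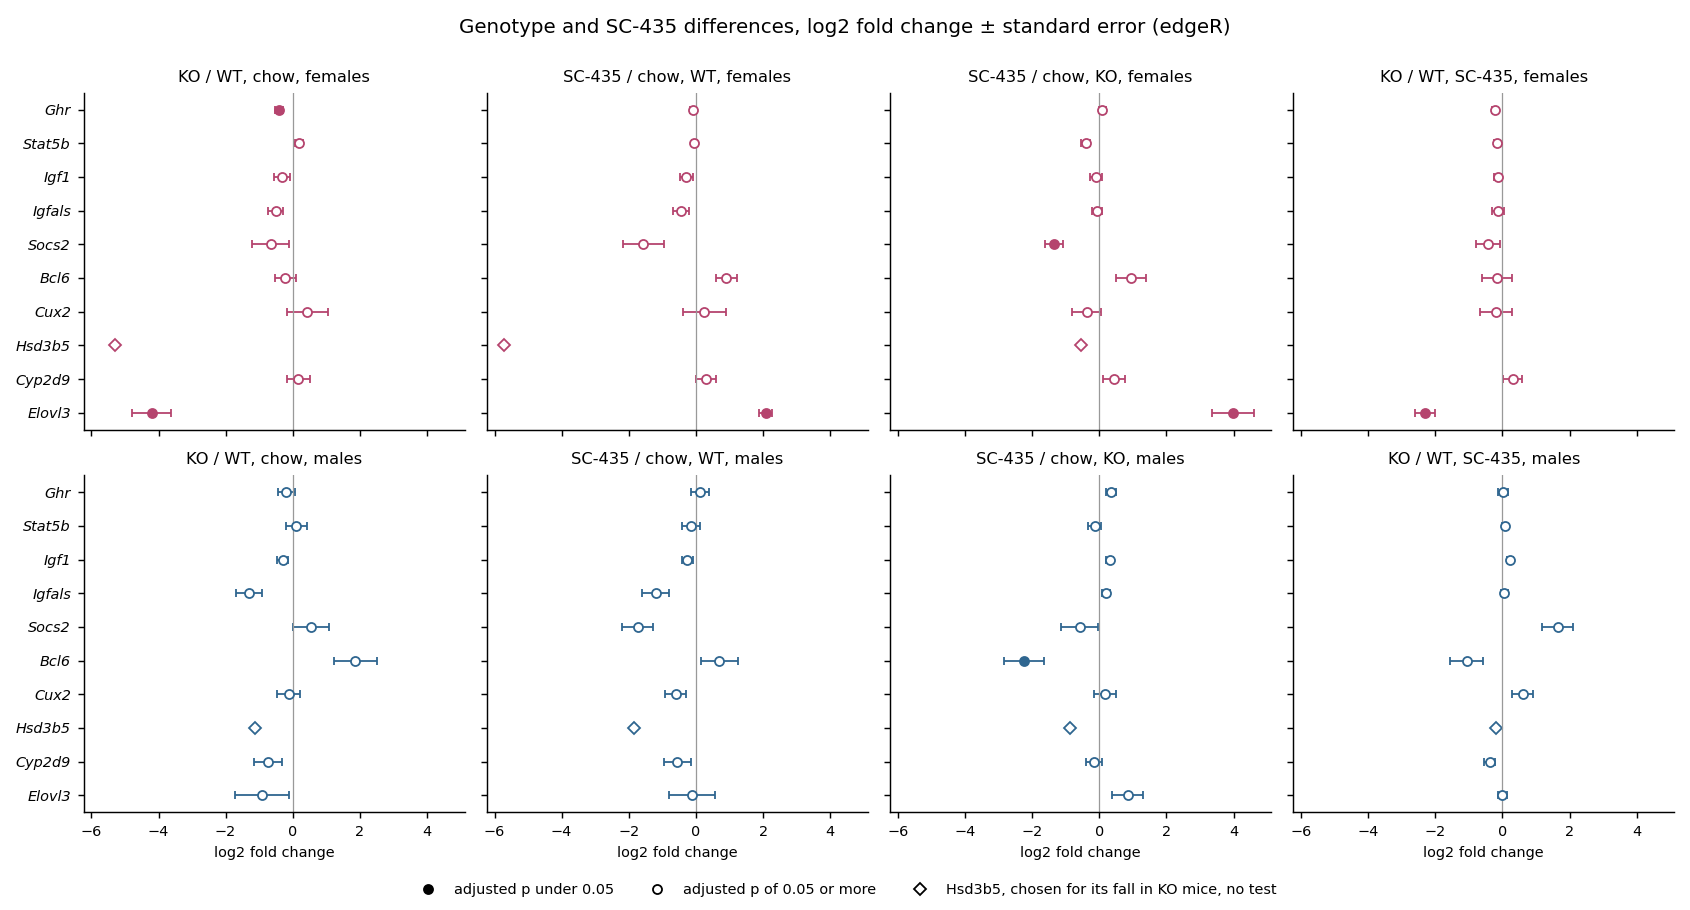
Genotype and SC-435 differences of the 10 genes, as log2 fold change with its standard error from edgeR, females in the upper row and males in the lower row. Filled circles have an adjusted p under 0.05, open circles do not, and open diamonds are *Hsd3b5*, shown without a test. In females *Elovl3* lies at -4.21 for KO against WT mice on chow and at 3.98 for KO mice given SC-435 against chow.

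*Ghr* (ENSMUSG00000055737, minus strand of chromosome 15 from 3317760 to 3583492 in GRCm38), the gene of the receptor itself, was at 513, 573, 471 and 524 CPM in the 4 female WT mice on chow. The 4 female KO mice on chow were at 351, 361, 378 and 475 CPM, so KO mice lay lower and only the highest of them reached into the WT range. The log2 difference was -0.42 (SE 0.12, edgeR adjusted p = 0.0444). The summed level of the hepatocyte markers was also lower in these KO mice, at 67639 to 90748 CPM against 102626 to 127528 CPM, and its part in the *Ghr* difference was not tested. The *Ghr* call was lost with any of the 4 WT mice or of KO mice 1, 2 and 3 left out (adjusted p up to 0.144), and was kept at 0.00883 without KO mouse 4. With all mice it was also lost with library-size scaling (-0.23, edgeR adjusted p = 0.180), with no filter (0.0537), with a mean count of 50 as the filter (0.0562) and with the replicate block (0.0733), and the size is below a log2 fold change of 1. On SC-435, female KO mice were at 403 to 425 CPM and WT mice at 443 to 522 CPM, without overlap. That difference was -0.23 (SE 0.07, edgeR adjusted p = 0.0586), and DESeq2 called it at an adjusted p of 0.0146. Against WT mice on chow, the KO mice on SC-435 were lower by -0.32 (SE 0.08, edgeR adjusted p = 0.0235), a call lost without WT chow replicate 2 or any of the KO SC-435 mice (adjusted p up to 0.0771). In males, *Ghr* ran from 327 to 669 CPM on chow in WT mice and from 338 to 556 CPM in KO mice, and the difference was -0.19 (SE 0.26, edgeR adjusted p = 0.766), or -0.38 (SE 0.17, edgeR adjusted p = 0.194) without WT replicate 1, the lowest WT mouse.

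*Stat5b* (ENSMUSG00000020919, minus strand of chromosome 11 from 100780731 to 100850724), which carries the signal to the nucleus, kept a narrow range in most groups. Female WT mice were at 109 to 124 CPM on chow and 106 to 119 CPM on SC-435. Female KO mice were at 167, 132, 123 and 113 CPM on chow and at 107, 101, 110 and 86.3 CPM on SC-435, so every treated KO mouse lay below every chow-fed KO mouse. On the log2 scale the difference was -0.40 (SE 0.13, edgeR adjusted p = 0.0552). It passed the threshold under 5 of the 8 alternatives with all libraries, among them DESeq2 at 0.0283, and without KO chow replicate 4 at 0.0188. In male WT mice on chow, replicate 1 was at 153 CPM and the other 3 mice at 71.7 to 79.1 CPM. Of the 50-base words of *Stat5b* transcripts, 11.0% also occur in *Stat5a*, so some reads could belong to either gene.

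A list of 17 other genes of growth hormone receptor signalling was examined, chosen from general knowledge of the pathway with earlier results of these data known. In chow-fed females, 1 was higher and 1 lower in KO mice, where 14.9% of all genes were called, with a median log2 fold change of 0.09 against -0.02 over all genes tested. *Jak2*, the receptor's kinase, was higher by 0.42 (SE 0.11, edgeR adjusted p = 0.0275) and *Stat5a*, the close relative of *Stat5b*, lower by -0.45 (SE 0.11, edgeR adjusted p = 0.0224). With library-size scaling in place of TMM, 5 were higher and 0 lower. In female KO mice on SC-435 against chow, 1 of 17 was higher and 3 were lower, with 17.8% of all genes called. *Prlr*, the prolactin receptor gene, rose from 259 to 374 CPM on average (log2 fold change 0.53, edgeR adjusted p = 0.0324), whereas *Jak2* fell by 0.31 on the log2 scale (edgeR adjusted p = 0.0253). In males, none of the 17 was called by edgeR between KO and WT mice on chow, with 0 unadjusted p values under 0.05 and 0 calls by DESeq2, and 0 were called without WT replicate 1, with 3 unadjusted p values under 0.05. In KO males, *Prlr* was higher by 0.87 on SC-435 (edgeR adjusted p = 0.0319).

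*Socs2* (ENSMUSG00000020027, minus strand of chromosome 10 from 95385362 to 95417180), a feedback inhibitor that STAT5 induces, varied several-fold within groups. Female WT mice on chow were at 15.7, 106, 83.3 and 24.9 CPM, and female WT mice on SC-435 at 34.0, 22.5, 14.4 and 6.96 CPM. Their log2 fold change of -1.57 (SE 0.62) had an edgeR adjusted p of 0.198. Female KO mice on chow were at 37.0, 18.9, 34.2 and 55.7 CPM, and on SC-435 all 4 were between 12.1 and 16.05 CPM, below every chow-fed KO mouse. That fall had a log2 fold change of -1.34 (SE 0.26, edgeR adjusted p = 0.00951). It was kept with each mouse left out in turn and lost when the 4 female groups were fitted together (adjusted p = 0.0827). Against female WT mice on chow, treated KO mice were lower by -1.99 (SE 0.49, edgeR adjusted p = 0.0196), a call lost without WT chow replicate 2 or KO SC-435 replicate 2 or 3 (adjusted p up to 0.0628).

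In male WT mice, *Socs2* was at 31.3, 30.9, 42.7 and 13.7 CPM on chow and at 5.11, 4.84, 15.4 and 10.1 CPM on SC-435, with an overlap of 1 mouse from each group. The fitted log2 fold change was -1.74 (SE 0.45, edgeR adjusted p = 0.401, and 0.0183 by DESeq2), and -1.72 (SE 0.46, edgeR adjusted p = 0.0932) without WT chow replicate 1. One of the male WT mice on SC-435 stood apart in its inflammation and acute phase genes, whose summed level reached 35492 CPM in that group against 2621 CPM in its lowest mouse, and their part in this value was not tested. Male KO mice ran from 14.3 to 71.1 CPM on chow and from 11.1 to 46.3 CPM on SC-435. *Cish*, another STAT5-induced inhibitor of the receptor, averaged 22.3 CPM in female WT mice and 31.4 CPM in female KO mice on chow, and 4.12 and 3.998 CPM on SC-435. Its log2 fold changes with SC-435 were -2.45 in WT females (SE 0.43, edgeR adjusted p = 0.0161) and -2.97 in KO females (SE 0.36, edgeR adjusted p = 0.00164). *Socs3*, which encodes a related inhibitor that cytokines also induce, was lower by -1.41 with SC-435 in KO females (SE 0.22, edgeR adjusted p = 0.00421). *Socs1*, another member of that family, differed by -0.32 there (SE 0.26, edgeR adjusted p = 0.422). The summed level of 10 inflammation and acute phase genes was 1644 to 2271 CPM in female KO mice on SC-435, below the 2310 to 3976 CPM of all 4 female KO mice on chow. In female WT mice it was 2269 to 2686 CPM on SC-435 and 2304 to 2891 CPM on chow, and its part in these values was not tested.

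*Igf1* (ENSMUSG00000020053, plus strand of chromosome 10 from 87858265 to 87937042), the main endocrine product of the pathway, was called in none of the 10 comparisons of genotype or diet by edgeR with all mice. Without female WT chow replicate 4, *Igf1* was lower in treated KO than in chow-fed WT females by -0.55 (edgeR adjusted p = 0.0250), against -0.41 (SE 0.18, edgeR adjusted p = 0.148) with all mice. Female WT mice on chow were at 652, 979, 730 and 485 CPM and female KO mice at 394, 527, 720 and 652 CPM, with wide overlap. The log2 fold change was -0.32 (SE 0.23, edgeR adjusted p = 0.377). Male KO mice were at 508, 484, 466 and 391 CPM on chow and at 604, 590, 580 and 517 CPM on SC-435, so every treated mouse was above every chow-fed mouse. The log2 difference was 0.31 (SE 0.11, edgeR adjusted p = 0.0698, and 0.0143 by DESeq2).

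*Igfals* (ENSMUSG00000046070, plus strand of chromosome 17 from 24878770 to 24882008) encodes the acid-labile subunit that holds IGF1 in a large circulating complex. Male WT mice on chow were at 532, 153, 181 and 178 CPM, and male KO mice on chow at 110, 89.1, 103 and 110 CPM, so each KO mouse lay below each WT mouse. On the log2 scale the difference was -1.30 (SE 0.39, edgeR adjusted p = 0.152). Without WT replicate 1, which held the high value, it was -0.71 (SE 0.11, edgeR adjusted p = 0.0142). Male WT mice on SC-435 were at 106 to 129 CPM, also below every WT mouse on chow, with a log2 fold change of -1.20 (SE 0.40, edgeR adjusted p = 0.630) with all mice and -0.59 (SE 0.10, edgeR adjusted p = 0.0221) without replicate 1. Male KO mice on SC-435 were at 97.3 to 134 CPM, and their difference from WT mice on chow was -0.52 without replicate 1 (SE 0.11, edgeR adjusted p = 0.0190) and -1.12 with it (SE 0.39, edgeR adjusted p = 0.444). Summed hepatocyte markers were at 66182 to 80407 CPM in male WT mice on SC-435 and 86318 to 197663 CPM on chow. Male KO mice, at 61625 to 91501 CPM on chow and 74462 to 97832 CPM on SC-435, overlapped the WT range on chow. *Dbp*, an output gene of the circadian clock, was at 128 to 137 CPM in WT chow mice other than replicate 1. It was at 2.91 to 75.0 CPM in the males compared with them. The part of either in the *Igfals* differences was not tested.

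In females, *Igfals* was at 244, 283, 171 and 146 CPM in WT mice and 122, 122, 177 and 176 CPM in KO mice on chow. The groups overlapped, and the log2 fold change was -0.51 (SE 0.22, edgeR adjusted p = 0.146). Female KO mice on SC-435 differed from WT mice on chow by -0.57 (SE 0.19, edgeR adjusted p = 0.0630, and 0.0165 by DESeq2). Of 9 tested genes of an 11-gene list of other IGF system genes, 1 was higher and 1 lower in chow-fed female KO mice (14.9% of all genes called), with a median log2 fold change of -0.02, equal to that of all genes tested to 2 decimals. The binding protein genes *Igfbp1* and *Igfbp3* and the receptor gene *Igf1r* differed by -0.02, 0.49 and 0.26 (edgeR adjusted p = 0.987, 0.271 and 0.421). In males on chow, 0 of 9 were called by edgeR, 3 had an unadjusted p under 0.05 and DESeq2 called 1, with 1.08% of all genes called. Without WT replicate 1, 2 of 10 were higher in KO males, with 7.3% of all genes called, and *Igfbp1* was at 2.83 (SE 0.56, edgeR adjusted p = 0.0274). *Igfbp2*, an abundant binding protein gene of the liver, averaged 595 CPM in female WT mice and 364 CPM in female KO mice on chow (edgeR adjusted p = 0.0902) and was higher by 0.68 on SC-435 in KO females (SE 0.19, edgeR adjusted p = 0.0338).

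**Figure D3:**
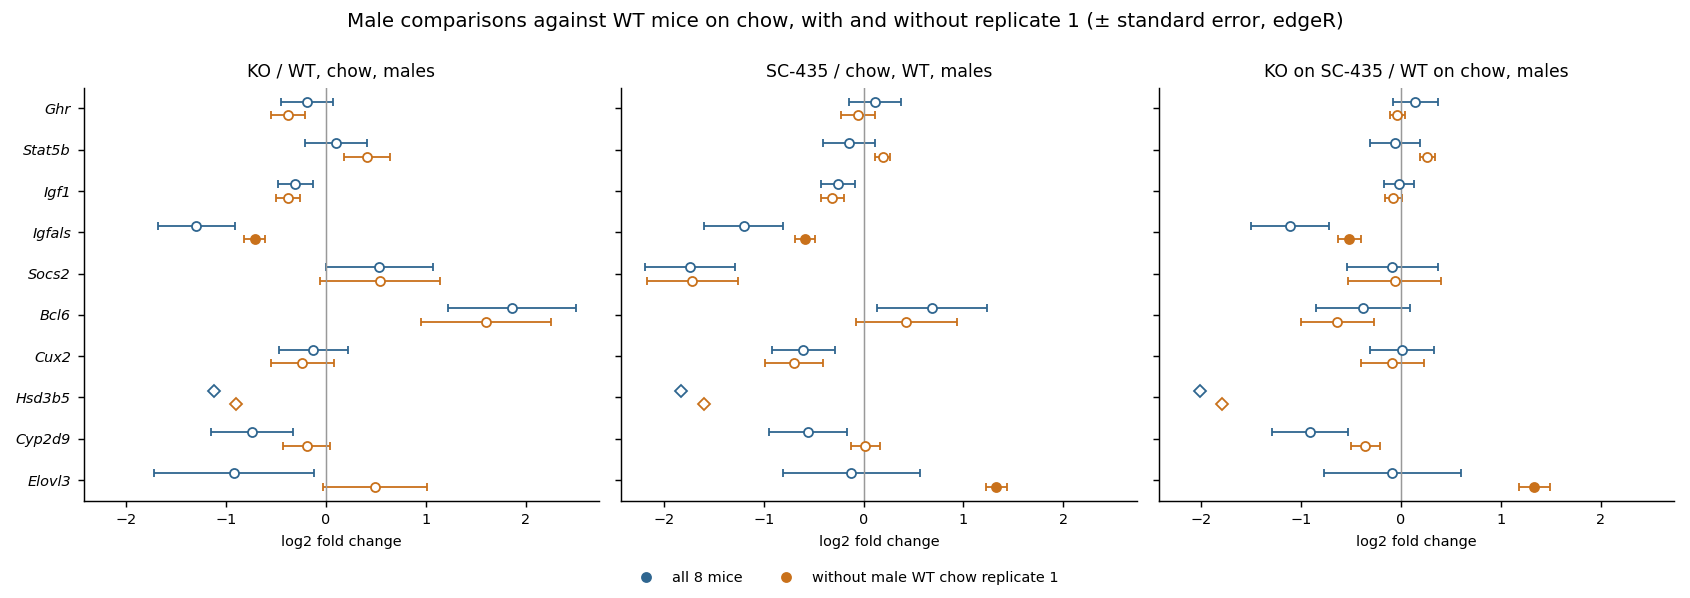
The 10 genes in male mice, as log2 fold change with its standard error from edgeR, for comparisons with WT mice on chow, with all 8 mice (blue) and without male WT chow replicate 1 (orange). Filled circles have an adjusted p under 0.05, open circles do not, and open diamonds are *Hsd3b5*, shown without a test. *Elovl3* moves from -0.12 to 1.33 for SC-435 against chow in WT mice when that mouse is left out.

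*Bcl6* (ENSMUSG00000022508, minus strand of chromosome 16 from 23965052 to 23988852), a repressor that STAT5 displaces at shared DNA sites, was called by edgeR in a single comparison, SC-435 against chow in male KO mice. These mice were at 134, 107, 24.7 and 26.2 CPM on chow and at 27.3, 13.6, 10.5 and 10.7 CPM on SC-435. A single treated mouse lay within the chow range, and the chow-fed mice fell into a high pair and a low pair. The fitted log2 fold change was -2.23 (SE 0.60, edgeR adjusted p = 0.0342), and the call did not hold when chow replicate 1 or 2 or SC-435 replicate 2, 3 or 4 was left out (adjusted p up to 0.0996). Male WT mice on chow were at 8.23, 24.9, 33.3 and 14.5 CPM. The KO to WT difference on chow was 1.86 (SE 0.64, edgeR adjusted p = 0.205, and 0.0420 by DESeq2), and 1.60 (SE 0.65, edgeR adjusted p = 0.154) without WT replicate 1. In females, *Bcl6* had positive log2 fold changes with SC-435 of 0.89 in WT mice (SE 0.31, edgeR adjusted p = 0.150, and 0.0337 by DESeq2) and 0.95 in KO mice (SE 0.455, edgeR adjusted p = 0.175).

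The high and low pairs of *Bcl6* in male KO mice on chow were set beside a pair of genes of the circadian clock, which were chosen after their values were seen. *Dbp*, an output gene of the clock, was at 2.91 and 6.95 CPM in the mice with high *Bcl6* and at 15.8 and 26.8 CPM in those with low *Bcl6*. *Arntl*, which encodes a core clock activator, was at 27.5 and 17.02 CPM in the former and at 9.23 and 12.97 CPM in the latter. *Dbp* also ranged from 16.8 CPM in male WT chow replicate 1 to 128 to 137 CPM in the other 3 mice of that group, and from 2.91 to 26.8 CPM in all male KO mice on chow. In males on SC-435, *Dbp* was at 19.4 to 75.0 CPM. The part of the hour of collection in these differences, and in values given without male WT chow replicate 1, was not tested.

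*Cux2* (ENSMUSG00000042589, minus strand of chromosome 5 from 121856366 to 122050102), the repressor of male-biased genes in female liver, was at 6.69 to 58.8 CPM in the 16 females and at 0.264 to 0.729 CPM in the 16 males, where it had 10 to 30 counts per mouse. Female WT mice on chow were at 33.6, 47.7, 17.5 and 6.69 CPM and female KO mice at 58.8, 25.5, 9.38 and 48.8 CPM. The groups overlapped almost fully, and the log2 fold change was 0.43 (SE 0.61, edgeR adjusted p = 0.673). Of 16 other regulators of liver sex bias and hepatocyte identity, 1 was higher and 1 lower in chow-fed female KO mice, where 14.9% of all genes were called. The lower one was *Hnf4a*, which encodes a nuclear receptor that maintains hepatocyte identity, at 608 CPM on average against 810 CPM in WT mice (log2 fold change -0.42, SE 0.11, edgeR adjusted p = 0.0295). *Onecut1*, a hepatocyte transcription factor gene that growth hormone regulates, was lower with SC-435 in female WT mice by -2.42 (SE 0.52, edgeR adjusted p = 0.0334) and differed by -1.93 in female KO mice (SE 0.60, edgeR adjusted p = 0.0503). *Trim24*, a corepressor gene that is higher in female liver, differed by -0.37 (SE 0.28, edgeR adjusted p = 0.412).

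*Elovl3* (ENSMUSG00000038754, plus strand of chromosome 19 from 46131897 to 46135307), which encodes an elongase of long-chain fatty acids and is male-biased in liver, had the widest range of the 9 tested genes in females. Female WT mice on chow were at 9.07, 15.2, 10.8 and 7.57 CPM. Female KO mice on chow were at 0.155, 0.194, 0.544 and 1.504 CPM, from 8 to 62 counts, and all lay below the WT mice. The log2 fold change was -4.21 (SE 0.58, edgeR adjusted p = 0.00230), an 18.5-fold difference. It was called under every alternative and with each mouse left out, and without KO replicate 4, the highest KO mouse, it was -5.15.

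On SC-435, female WT mice were at 46.1, 38.0, 54.5 and 41.6 CPM, all above the 4 chow-fed WT mice. *Elovl3* was thus higher with SC-435 by 2.07 on the log2 scale (SE 0.205, edgeR adjusted p = 0.00196). Female KO mice on SC-435 were at 10.8, 4.34, 6.81 and 14.5 CPM, all above the chow-fed KO mice and all below the treated WT mice. The log2 fold changes were 3.98 against KO mice on chow (SE 0.63, edgeR adjusted p = 0.00444) and -2.30 against WT mice on SC-435 (SE 0.30, edgeR adjusted p = 0.00218). Both calls were kept under every alternative and with each mouse left out, and the first was 4.95 without KO chow replicate 4. The clock gene *Dbp* in KO females was at 49.5 to 84.1 CPM on SC-435 and 4.58 to 43.7 CPM on chow, where replicate 4 was highest. In WT females it ran from 0.805 to 71.0 CPM on SC-435 and from 1.46 to 57.5 CPM on chow. The part of the hour of collection in the *Elovl3* and *Socs2* differences was not tested. For *Elovl3*, treated KO mice and WT mice on chow overlapped, with a difference of -0.23 (SE 0.325, edgeR adjusted p = 0.678). The response to SC-435 was larger in KO than in WT females by 1.92 (SE 0.63), which missed the threshold for that interaction (edgeR adjusted p = 0.105) and reached 2.86 without KO chow replicate 4 (edgeR adjusted p = 0.00555).

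In males, *Elovl3* on chow was at 1438, 195, 193 and 160 CPM in WT mice and at 440, 364, 131 and 84.1 CPM in KO mice. On SC-435, the 4 WT mice were at 444 to 473 CPM and the 4 KO mice at 351 to 536 CPM. The treated WT mice lay between replicate 1 and the other 3 WT mice on chow. With all mice the log2 fold change of SC-435 in WT males was -0.12 (SE 0.68, edgeR adjusted p = 0.967), and without replicate 1 it was 1.33 (SE 0.11, edgeR adjusted p = 0.00164). For KO males on SC-435 against WT males on chow, it was -0.09 (SE 0.69, edgeR adjusted p = 0.986) with all mice and 1.34 (SE 0.15, edgeR adjusted p = 0.00150) without replicate 1. The change with SC-435 in KO males was 0.86 (SE 0.46, edgeR adjusted p = 0.214), and the 2 lowest of the chow-fed mice lay below the treated range. *Dbp* was at 16.8 CPM in WT chow replicate 1 and at 128 to 137 CPM in the other 3 WT mice on chow. On SC-435 it was at 19.4 to 62.8 CPM in WT males and 19.9 to 75.0 CPM in KO males, below those 3 mice. The part of the hour of collection in the male *Elovl3* values was not tested.

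*Hsd3b5* (ENSMUSG00000038092, minus strand of chromosome 3 from 98618634 to 98630252), a male-biased steroid-metabolizing enzyme gene, was at 594, 312, 333 and 410 CPM in male WT mice on chow. Male KO mice on chow were at 268, 250, 131 and 96.2 CPM, each below each WT mouse, and the log2 fold change was -1.12, or -0.90 without WT replicate 1. On SC-435, male WT mice were at 152, 123, 107 and 80.5 CPM and male KO mice at 62.7, 202, 44.2 and 95.4 CPM. The 4 WT mice on SC-435 thus lay below the 4 WT mice on chow as well, with a log2 fold change of -1.83, or -1.60 without WT chow replicate 1. Between KO and WT males on SC-435, the groups overlapped and the log2 fold change was -0.19.

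In females, *Hsd3b5* was at 9.80, 29.1, 1.02 and 1.54 CPM in WT mice on chow, a span of more than an order of magnitude within the group. The other 12 females were at 0.0516 to 0.461 CPM, from 2 to 19 counts, and every one lay below the lowest WT mouse on chow. The log2 fold changes were -5.30 for KO against WT mice on chow and -5.71 for SC-435 against chow in WT mice, and both rest on the same 4 WT mice, of which replicates 1 and 2 held the high values. Of the 50-base words of *Hsd3b5*, 21.2% also occur in transcripts of other genes, most of them (18.2%) in *Hsd3b4*. Among its relatives, *Hsd3b3* differed by 0.20 in KO against WT females on chow (edgeR adjusted p = 0.501), and *Hsd3b2* was lower by -1.17 on SC-435 in KO females (edgeR adjusted p = 0.00262).

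*Cyp2d9* (ENSMUSG00000068086, plus strand of chromosome 15 from 82433437 to 82456845), a male-biased cytochrome P450 gene, was called in no comparison of genotype or diet by edgeR with all mice. Male WT mice on chow were at 5082, 1643, 1899 and 1675 CPM, and male KO mice at 1819, 1937, 1305 and 953 CPM. The log2 difference was -0.74 (SE 0.41, edgeR adjusted p = 0.429) and -0.19 (SE 0.24, edgeR adjusted p = 0.629) without WT replicate 1. Female mice were at 39.1 to 113 CPM, and the difference between KO and WT females on chow was 0.16 (SE 0.34, edgeR adjusted p = 0.787). With SC-435 in KO females it was 0.44 (SE 0.325, edgeR adjusted p = 0.371), and 0.85 (edgeR adjusted p = 0.0478) without KO chow replicate 3, the highest mouse of its group. For treated KO against chow-fed WT females it was 0.61 (SE 0.29, edgeR adjusted p = 0.185), and 0.94 (edgeR adjusted p = 0.0269) without WT chow replicate 4. Its 50-base words were shared with other genes for 21.8%, among them *Cyp2d12* (6.76%), and 7% of its exonic bases lie in a same-strand gene model, *Gm46501*, so these reads could be divided between genes. *Cyp2d12* was higher on SC-435 in KO females by 1.85 (SE 0.45, edgeR adjusted p = 0.0210).

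Other sex-biased targets of growth hormone were taken as lists chosen from general knowledge with earlier results of these data known. Of 12 tested male-biased genes, 2 were higher and 2 lower in chow-fed female KO mice, where 14.9% of all genes were called, with a median log2 fold change of 0.25. *Mup20*, a male pheromone protein gene, was higher by 2.22 (SE 0.43, edgeR adjusted p = 0.00907), whereas *Slco1a1*, an organic anion transporter gene, and *Cyp7b1*, an oxysterol hydroxylase gene, were lower by -2.55 (SE 0.54, edgeR adjusted p = 0.0129) and -1.56 (SE 0.39, edgeR adjusted p = 0.0250). Of 20 female-biased genes, 1 was higher and 6 were lower in chow-fed female KO mice (14.9% of all genes called), with a median of -1.60 against -0.02 over all genes tested. The hepatocyte markers, lower in these mice as given above, moved with this list, and their part in it was not tested. The higher one was *Prom1*, also known as a surface marker of biliary and progenitor cells, at 46.0 CPM on average against 2.97 CPM in WT mice (log2 fold change 3.94, SE 0.29, edgeR adjusted p = 0.000270), and cholangiocyte markers were higher in the same mice. *Cyp2b9*, which is largely restricted to female liver, was at 395 CPM on average in KO and 591 CPM in WT females (edgeR adjusted p = 0.322). *Cyp2a4*, a steroid hydroxylase gene, differed by -0.82 (edgeR adjusted p = 0.203).

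With SC-435 in female KO mice, 7 of the 20 female-biased genes were higher and 2 lower, with a median log2 fold change of 1.34 and 17.8% of all genes called. The summed hepatocyte markers were at 95458 to 108630 CPM in these treated mice against 67639 to 90748 CPM on chow, and their part was not tested. *Prom1* was lower by -3.23 (SE 0.28, edgeR adjusted p = 0.000594). Of 11 male-biased genes tested in that comparison, 2 were higher and 2 lower, among them *Cyp7b1* at 1.04 (SE 0.22, edgeR adjusted p = 0.0116) and *Mup20* at -2.26 (SE 0.44, edgeR adjusted p = 0.00914). In female WT mice, where 4.28% of all genes were called, SC-435 left 0 of 20 female-biased genes higher and 2 lower, and 2 of 11 male-biased genes higher, of which *Cyp4a12a*, a fatty acid hydroxylase gene, had a log2 fold change of 3.94 (SE 0.50, edgeR adjusted p = 0.00581). In male KO mice on SC-435 against chow, 5 of 11 female-biased genes were higher and 1 lower, and 2 of 13 male-biased genes were higher and 4 lower, with 17.2% of all genes called. *Cyp17a1*, a steroid hydroxylase gene, was the named example of the former at 2.82 (SE 0.48, edgeR adjusted p = 0.00725), and *Mup20* of the latter at -1.42 (SE 0.15, edgeR adjusted p = 0.000814). For KO against WT males on chow, 0 of 13 male-biased and 0 of 10 female-biased genes were called by edgeR, with 1.08% of all genes called, 3 unadjusted p values under 0.05 in each list and 1 and 3 calls by DESeq2. Without WT replicate 1, with 7.3% of all genes called, edgeR called *Mup20* higher at 0.81 (SE 0.16, adjusted p = 0.0274) and *Cyp4a12a* and *Cyp17a1* lower at -0.90 (SE 0.225, adjusted p = 0.0499) and -1.67 (SE 0.37, adjusted p = 0.0374), 2 of 13 and 1 of 10 genes.

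The sexes were compared on chow. In WT mice, *Cux2* was higher in females by 5.56 (SE 0.61, edgeR adjusted p = 0.00218), and *Cyp2d9* and *Elovl3* were lower by -5.49 (SE 0.52, edgeR adjusted p = 0.000968) and -5.53 (SE 0.84, edgeR adjusted p = 0.0131), 3 of 9 genes where 1.49% of all genes were called. The *Elovl3* value was -4.10 without male WT chow replicate 1 (edgeR adjusted p = 6.53e-06), and its call was lost without any of the 4 female WT mice (adjusted p up to 0.0761). In KO mice the same 3 genes were called, with 2.73% of all genes called: *Cux2* at 6.19 (SE 0.62, edgeR adjusted p = 0.00107), *Cyp2d9* at -4.53 (SE 0.39, edgeR adjusted p = 0.000475) and *Elovl3* at -8.77 (SE 0.90, edgeR adjusted p = 0.00120). Without female KO replicate 4, the *Elovl3* value was -9.74. *Hsd3b5* had log2 fold changes of -5.32 in WT and -9.45 in KO mice, given without a test. *Stat5b* was higher in WT females by 0.32 (SE 0.25, edgeR adjusted p = 0.681) with all mice and by 0.65 (SE 0.09, edgeR adjusted p = 0.00213) without male replicate 1. *Dbp* was at 1.46 to 57.5 CPM in the WT females. In the WT males it was at 16.8 CPM in replicate 1 and at 128 to 137 CPM in the rest. The part of the hour of collection in the sex differences was not tested. *Bcl6* was not called by edgeR between the sexes. In WT mice it was at 0.14 (SE 0.42, edgeR adjusted p = 0.931), or -0.11 (SE 0.30, edgeR adjusted p = 0.867) without male replicate 1. In KO mice it was at -1.90 (SE 0.58, edgeR adjusted p = 0.135). Of the other male-biased genes, 10 of 12 were lower in WT females and 11 of 12 in KO females. Of 20 female-biased genes, 17 were higher in females of either genotype. Both lists were chosen for known sex bias, with earlier results of these data known. *Cux2*, *Cyp2d9* and *Elovl3* were likewise known as sex-biased genes when the 9 were named. Such counts by sex, for the lists and for the 9 genes, are therefore a description and not a test. A gene read mainly in females can also pass the count filter through the females alone. Without male WT chow replicate 1, with 9.53% of all genes called, all 12 male-biased genes were lower and all 20 female-biased genes higher in WT females.

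**Figure D4:**
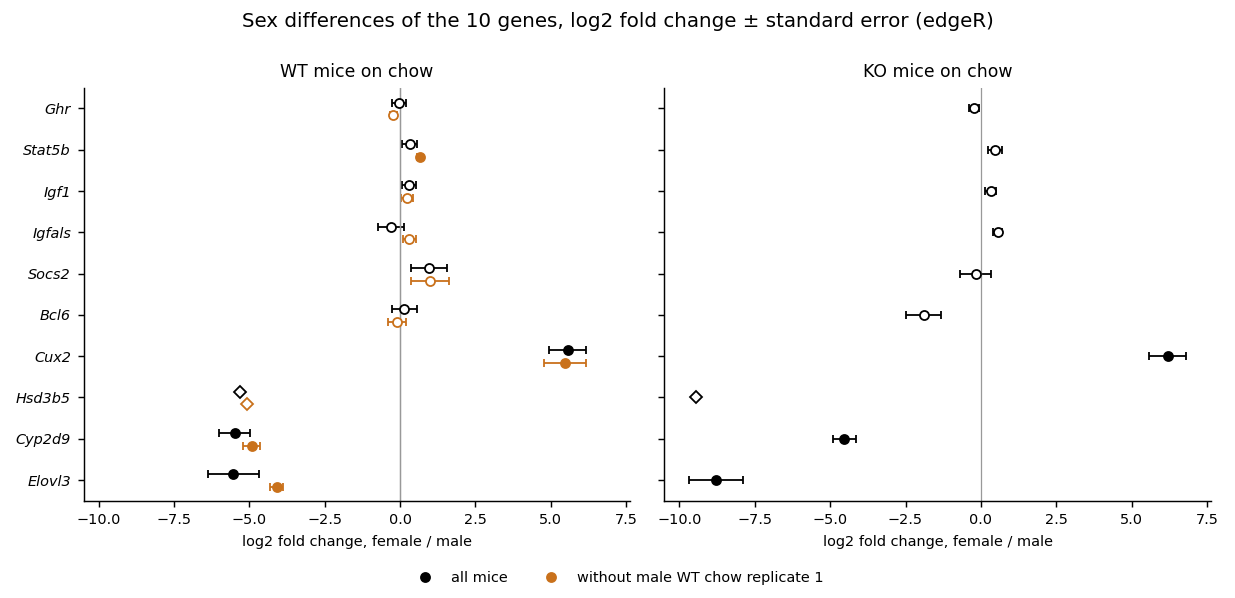
Female against male mice on chow for the 10 genes, as log2 fold change with its standard error from edgeR, in WT mice (left) and KO mice (right). Black is all mice, orange is without male WT chow replicate 1, filled circles have an adjusted p under 0.05, open circles do not, and open diamonds are *Hsd3b5*, shown without a test. *Cux2* lies on the female side at 5.56 and 6.19, and *Cyp2d9* and *Elovl3* on the male side.

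Whether genotype or SC-435 acted differently by sex or genotype was tested as an interaction. None of the 9 genes was called by edgeR in these tests. The genotype by SC-435 interaction gave 0 of 9 in females, with 2.64% of all genes called, 2 unadjusted p values under 0.05 and 0 calls by DESeq2. In males it gave 0 of 9 with 0.0906% called, 3 unadjusted p values under 0.05 and 2 calls by DESeq2, *Igf1* at 0.58 and *Bcl6* at -2.91. Without male WT chow replicate 1, *Igfals* was called at 0.77 (SE 0.16, edgeR adjusted p = 0.0466), with 0.697% of all genes called. The sex by genotype interaction on chow gave 0 of 9 with 0.0235% called, 2 unadjusted p values under 0.05 and 0 calls by DESeq2. In it, *Elovl3* was at -3.22 (SE 1.11, edgeR adjusted p = 0.574) with all mice and at -4.70 (SE 0.85, edgeR adjusted p = 0.0358) without male WT chow replicate 1, where 0.431% of all genes were called. The part of the hour of collection in these values was not tested. The sex by SC-435 interaction in KO mice gave 0 of 9 with 0.211% called, 2 unadjusted p values under 0.05 and 1 call by DESeq2. *Elovl3* was at 3.12 there (SE 0.83, edgeR adjusted p = 0.131), and at 4.08 (edgeR adjusted p = 0.0339) without female KO chow replicate 4, and *Bcl6* was at 3.16 (SE 0.82, edgeR adjusted p = 0.124, and 0.0293 by DESeq2).

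The genes most like each of the 10 were found by Pearson's r of log2 CPM over the 32 mice after each group's mean was taken away, among 11735 protein-coding genes averaging 50 counts or more. These mice share groups and library effects, and r is given as a description. With all mice, *Hsd3b5* was most like *Slc22a28* (r = 0.77), *Cyp7b1* (0.76) and *Selenbp2* (0.76), of which the latter pair are on the list of male-biased genes, and over the 31 mice without male WT chow replicate 1 *Slco1a1* (0.79) led. *Cux2* was most like *Trim24* (0.72, and 0.77 over 31 mice), from the list of regulators. *Igf1* was most like *Adh4* (0.81, and 0.82 over 31 mice), and *Socs2* like *E2f8* (0.80 with and without that mouse). *Stat5b* was most like *Gcgr* (0.92, and 0.86 over 31 mice) and *Bcl6* like *Ggnbp1* (0.71, and 0.67 over 31 mice). For *Ghr*, *Igfals*, *Cyp2d9* and *Elovl3* the leading gene also changed when that mouse was left out. It went from *Rmdn2* (0.92) to *Acadsb* (0.89) for *Ghr*, and from *Ghdc* (0.87) to *Igf1* (0.76) for *Igfals*. For *Cyp2d9* it went from *Eif2ak1* (0.78) to *Gphn* (0.75), and for *Elovl3* from *Gfm2* (0.88) to *Mup3* (0.84).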

How the data were processed

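Liver RNA of 32 mice was sequenced, with 1 library per mouse and 4 mice per group, and each label names a separate mouse. The authors deposited whole-number read counts per gene, and the submitters' processing notes name HISAT2 2.0.5, featureCounts 1.5.0-p3, DESeq2 1.20.0, GATK 4.1.1.0 and the mm10 build. Whether reads were counted by strand is not given in the sources used here, and the deposited FPKM values and the authors' comparison columns (fold changes and p-values) were not used. Counts were filtered with filterByExpr, scaled by TMM and tested for each comparison on its own groups with edgeR's quasi-likelihood test (edgeR 4.0.16, limma 3.58.1, R 4.3.3), with Benjamini-Hochberg adjustment over all genes tested and a threshold of 0.05. CPM values are counts scaled to a common size of the TMM-scaled library, and CPM per kb divides them by the gene length in the table. Library totals of 36476021 to 44771350 counts (median 42232543) limit the precision of low genes such as *Hsd3b5* in female KO mice (2 to 19 counts per mouse) and *Elovl3* in female KO mice on chow (8 to 62).

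The 10 genes and all lists were chosen with earlier results of these data known. Named genes were the 10 genes and, from the lists, a set of pathway, sex-biased and related genes listed by name whatever their values, plus the 3 genes most like each of the 10. A listed gene is not reported here. As alternatives, RLE size factors or plain library sizes replaced TMM, DESeq2 1.42.0 replaced edgeR, the filter was dropped or set to a mean of 50 counts, a log2 fold change beyond 1 was required, a replicate block was added, all groups of a sex were fitted together, and each mouse was left out in turn. The labels share replicate numbers between groups, but in 0 comparisons did every same-numbered pair correlate above 0.1 (range -0.26 to 0.33), so the numbers were not taken to pair mice. Scripts were tested on simulated counts. Coordinates are GRCm38, and promoter windows are RefSeq GRCm38.p6.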

Additional observations from a re-analysis of the deposited data

Results flagged for a closer look

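Of 80 sets of 4 mice (10 genes in 8 groups), 8 held a mouse whose gap to its nearest neighbour passed Dixon's critical value for 4 samples, where chance gives about 1 in 20. Of these, 5 held male WT chow replicate 1. Its TMM factor of 0.622, against 0.964 to 1.004 in the other 3, raises every CPM value in it above plain library-size scaling. The part of that scaling in its gaps was not tested. In that mouse *Stat5b* was at 152.5 CPM, above 71.7 to 79.1 CPM in the other 3. Its *Igfals* level was 531.5 CPM, above 153 to 181 CPM. *Cyp2d9* reached 5082 CPM there, above 1643 to 1899 CPM. *Elovl3* was at 1438 CPM in it, above 160.3 to 195 CPM. *Cux2* was at 0.429 CPM in it, below 0.575 to 0.596 CPM. *Igfals* was at 128.9 CPM in male WT SC-435 replicate 3, above 106 to 110.2 CPM. *Hsd3b5* was at 0.427 CPM in replicate 1 of the female WT mice on SC-435, above 0.112 to 0.122 CPM. *Cyp2d9* was at 112.8 CPM in replicate 3 of the female KO mice on chow, above 46.2 to 49.4 CPM.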

How the results depend on the processing

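Of 159 results on single genes, 2 reversed: without male WT chow replicate 1, *Elovl3* went from -0.12 to 1.33 for SC-435 in male WT mice (-0.39 to 1.33 with any mouse left out) and from -0.09 to 1.34 (-0.38 to 1.34) for male KO mice on SC-435 against WT mice on chow. Values that passed the threshold on neither side changed sign in 21 results under alternatives with all mice and in 35 with a mouse left out. DESeq2 gave no adjusted p for *Elovl3* in 3 comparisons that include male WT mice on chow. Library-size scaling shifted the median over all genes by 0.19 (log2) for female KO against WT on chow (2727 up and 275 down, against 1593 and 818 with TMM) and by -0.16 and -0.20 for SC-435 in female and male KO mice (826 up and 3202 down against 1398 and 1508, and 755 and 2320 against 1407 and 1337). The female genotype by SC-435 interaction moved by -0.16 (109 up and 838 down against 145 and 300). Male KO against WT on chow moved by 0.25, and the sexes in WT by 0.16 (133 up and 84 down against 116 and 116). Low counts limit *Hsd3b5* in female KO mice and *Elovl3* in female KO mice on chow. The causes of the changes that follow were not tested. The replicate block is a check only, since the numbers do not pair mice. With a log2 fold change beyond 1, the calls over all genes were 1082 for female KO against WT on chow, 948 for female KO across diets, 173 for female WT across diets, 406 for female KO against WT on SC-435, 624 for female KO on SC-435 against WT on chow, 256 for the female genotype by SC-435 interaction, 1031 for male KO across diets, 260 for the sexes in KO and 22 for sex by SC-435. Among the 10 genes without *Hsd3b5*, calls with a log2 fold change beyond 1 were 1 for female KO against WT on chow and 1 for female KO on SC-435 against WT on chow. With library-size scaling, the calls over all genes were 947 for the female genotype by SC-435 interaction, 1 for male WT across diets, 0 for sex by genotype and 14 for sex by SC-435. Library-size scaling gave, of the 9 tested genes, 1 for female KO against WT on chow. With DESeq2, the calls over all genes were 1420 for female WT across diets, 1205 for the female genotype by SC-435 interaction, 1081 for male KO against WT on chow, 4230 for male KO across diets, 205 for male WT across diets, 179 for male KO against WT on SC-435, 412 for male KO on SC-435 against WT on chow, 357 for the male genotype by SC-435 interaction, 665 for the sexes in WT, 1260 for the sexes in KO, 78 for sex by genotype and 339 for sex by SC-435. Among the 10 genes without *Hsd3b5*, calls with DESeq2 were 2 for female WT across diets, 2 for female KO against WT on SC-435, 2 for male KO against WT on chow, 2 for male KO across diets, 1 for male WT across diets, 2 for the male genotype by SC-435 interaction and 1 for sex by SC-435. With no filter on low counts, the calls over all genes were 274 for male KO against WT on chow, 12 for male WT across diets, 27 for male KO against WT on SC-435 and 57 for the male genotype by SC-435 interaction. No filter on low counts gave, of the 9 tested genes, 1 for female KO against WT on chow. With a mean count of 50 as the filter, the calls over all genes were 106 for male KO against WT on chow. Among the 10 genes without *Hsd3b5*, calls with a mean count of 50 as the filter were 1 for female KO against WT on chow. With the replicate block, the calls over all genes were 1902 for female KO across diets, 375 for female WT across diets, 1146 for female KO against WT on SC-435, 215 for the female genotype by SC-435 interaction, 17 for male KO against WT on chow, 1329 for male KO across diets, 0 for male WT across diets, 3 for male KO against WT on SC-435, 0 for male KO on SC-435 against WT on chow, 6 for the male genotype by SC-435 interaction, 134 for the sexes in WT, 180 for the sexes in KO, 0 for sex by genotype and 6 for sex by SC-435. The replicate block gave, of the 9 tested genes, 1 for female KO against WT on chow and 0 for female KO on SC-435 against WT on chow. With the 4 groups of 1 sex fitted together, the calls over all genes were 4023 for female KO against WT on chow, 820 for female KO against WT on SC-435, 1399 for male KO against WT on chow, 1046 for male KO across diets, 103 for male WT across diets and 158 for male KO on SC-435 against WT on chow. Among the 10 genes without *Hsd3b5*, calls with the 4 groups of 1 sex fitted together were 1 for male KO against WT on chow. Leaving out each mouse in turn gave calls over all genes of 1201 to 3197 for female KO against WT on chow, 1287 to 4403 for female KO across diets, 159 to 774 for female WT across diets, 796 to 1456 for female KO against WT on SC-435, 1456 to 3174 for female KO on SC-435 against WT on chow, 68 to 1644 for the female genotype by SC-435 interaction, 10 to 1196 for male KO against WT on chow, 985 to 3370 for male KO across diets, 1 to 394 for male WT across diets, 4 to 15 for male KO against WT on SC-435, 10 to 1923 for male KO on SC-435 against WT on chow, 2 to 118 for the male genotype by SC-435 interaction, 117 to 1515 for the sexes in WT, 192 to 827 for the sexes in KO, 0 to 75 for sex by genotype and 6 to 185 for sex by SC-435. For the 9 genes it gave 1 to 2 for female KO against WT on chow, 1 to 2 for female KO against WT on SC-435, 0 to 5 for female KO on SC-435 against WT on chow, 0 to 1 for the female genotype by SC-435 interaction, 0 to 1 for male KO against WT on chow, 0 to 1 for male KO across diets, 0 to 2 for male WT across diets, 0 to 2 for male KO on SC-435 against WT on chow, 0 to 1 for the male genotype by SC-435 interaction, 0 to 1 for sex by genotype and 0 to 1 for sex by SC-435.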
